A study of Mus musculus with 12 samples.

Results

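Voltage-gated sodium and calcium channel genes were described across the hippocampal total RNA libraries of APP/PS1 mice and their wild-type (WT) littermates. Members were the symbols of the gene table that name sodium channel alpha or beta subunits or calcium channel alpha1, alpha2delta or beta subunits, 32 of the 24736 symbols. Of these, 14 were sodium channel and 18 calcium channel genes. The calcium channel gamma genes were not members and were counted with the partner genes. The study took hippocampus from male mice aged 4 months, 3 carrying the APPswe and PSEN1dE9 transgenes and 3 littermates without them. Stranded total RNA libraries were made from each and sequenced on an Illumina HiSeq instrument. In the widely used mouse line with these transgenes both are driven by elements of the mouse prion promoter. Each library was made from tissue taken as hippocampus, so that fewer cells of a type and less RNA per cell cannot be told apart. Marker genes of other tissues were high in some libraries, as given below.

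Sodium channels open rapidly on depolarisation and carry the upstroke of the action potential. Their alpha subunit forms the pore, the voltage sensors and the inactivation gate, and the beta subunits, single-pass membrane proteins with an immunoglobulin-like domain, alter gating and surface expression. Voltage-gated calcium channels turn depolarisation into calcium entry: L-type (Cav1) channels couple activity to gene expression, P/Q-, N- and R-type (Cav2) channels trigger transmitter release, and T-type (Cav3) channels open near rest and support bursting. Intracellular beta and extracellular alpha2delta subunits bring Cav1 and Cav2 channels to the membrane.

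The libraries held 120958765 to 146904552 estimated counts, and levels are given as CPM, counts scaled to a common library total after TMM adjustment, which can be compared between libraries for 1 gene but not between genes of different length. App, which the transgene raises, stood at 2948 to 3465 CPM in APP/PS1 and 1522 to 1580 CPM in WT, so the libraries matched their labels there. APP/PS1 replicate 3 stood apart from the other 5 libraries. Its median Pearson correlation with them was 0.967 in log2 CPM over the genes tested, against 0.983 to 0.985 for each of the other libraries. A list of 6 cerebellar genes (Pcp2, Gabra6, Cbln1, Cbln3, Fat2 and Car8) summed to 3427 CPM in it and to 12.7 to 23.9 CPM in the other 5, and all 6 genes were highest in it. Gabra6, which marks cerebellar granule cells, was at 283 CPM there and at 0 to 0.33 CPM elsewhere. Lists for the CA1 field, for CA2 and CA3 and for the dentate gyrus summed to 268, 98.7 and 163 CPM in that library. In the other 5 they summed to 453 to 538, 185 to 235 and 245 to 257 CPM. The fall was not particular to these lists. Neocortex, oligodendrocyte precursor and microglia lists were also lowest in replicate 3, at 169, 144 and 133 CPM against at least 238, 213 and 191 CPM. Astrocyte and red blood cell lists were highest in it, at 1689 and 536 CPM against at most 1512 and 348 CPM. APP/PS1 replicate 2 held the highest level of all 9 choroid plexus genes listed, with a sum of 4112 CPM against 1554 to 2483 CPM in the other libraries. For most members the channel results are therefore given with and without APP/PS1 replicate 3. The part of these other tissues in the results was not tested.

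**Figure D1:**
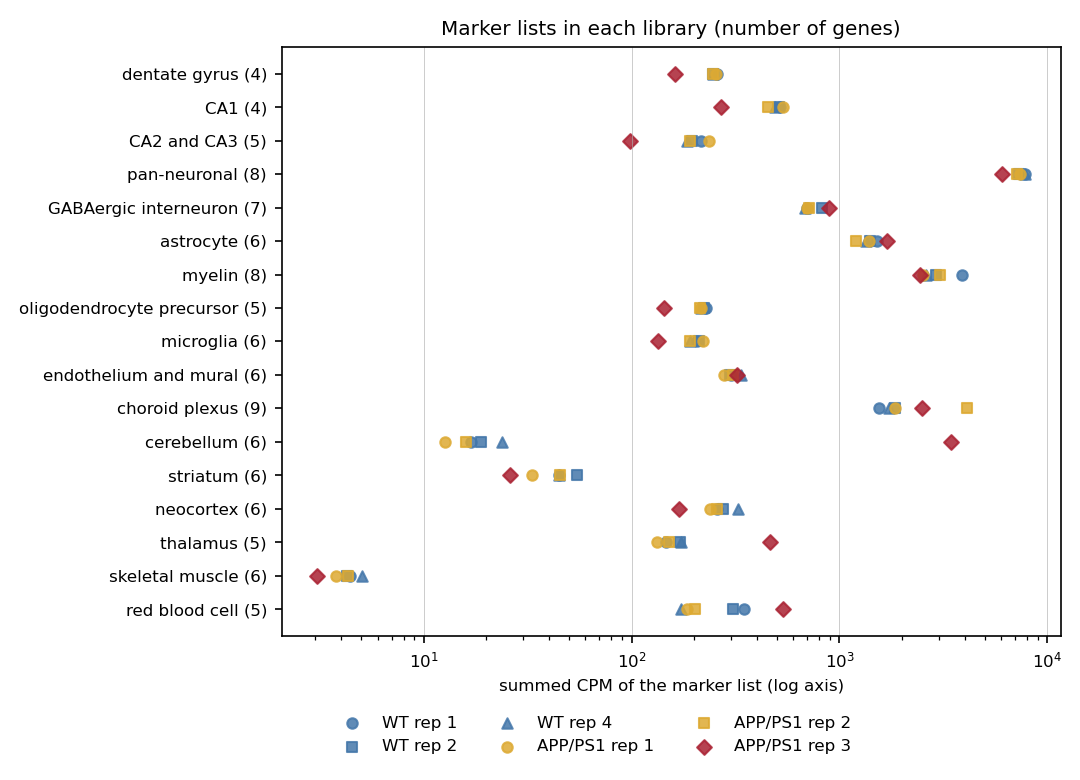
Summed CPM of 17 marker lists (vertical axis, number of genes in brackets) in each of the 6 libraries on a log axis. The cerebellar sum of APP/PS1 replicate 3, 3427 CPM, lies far from the 12.7 to 23.9 CPM of the other 5 libraries. The hippocampal field lists, like several others, lie lowest in that library.

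The first question was whether any channel gene differs between the genotypes. None was called in edgeR's quasi-likelihood test: 0 of the 30 members that passed the expression filter had a Benjamini-Hochberg adjusted p under 0.05, where 1 of all 18060 genes tested (0.00554%) did. App, which the transgene raises, was not called in that fit either (log2 fold change 1.04, edgeR adjusted p 0.117). A member that was not called may therefore still differ. An unadjusted p under 0.05 was found for 1 member, Cacnb4, where 617 genes (3.42%) had one. DESeq2 and limma-voom also called 0 members, where they called 0.117% and 0.00554% of all genes. At an unadjusted p under 0.05 DESeq2 had 2 members (Cacnb4 and Scn4a) and limma-voom 0, where 4.4% and 3.43% of all genes were. In the remaining settings 0 members were called as well. The share of all genes called in those was 0.0277% with quality weights, 0.0111% with the replicate block, 0.00684% with the filter of 1 CPM, 0.00613% with counts divided by 4 and 0.00473% with no filter, and with single libraries left out it was 0.0327% (APP/PS1 replicate 1), 0.00545% (APP/PS1 replicate 2) and 0.0218% (WT replicate 4). Without APP/PS1 replicate 3, edgeR called 0 of 31 members, where 5 of 18302 genes (0.0273%) were called. The only member at an unadjusted p under 0.05 was then Scn4b, where 737 genes (4.03%) had one. The APP/PS1 and WT levels did not overlap for 1 of the 30 members, Cacna2d4, where 1877 genes (10.4%) did not overlap. It was lower in APP/PS1, as were 4.76% of genes, and 0 members were higher, where 5.63% of genes were. Leaving out APP/PS1 replicate 3, they did not overlap for 3 members, Scn3a, Scn4b and Cacna2d4, where 19.4% of genes did not. Scn4a and Scn11a did not pass the filter, and their counts are given below.

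The sign of the log2 fold change depended on 1 library for most members, though some values were near 0 in both fits. The log2 fold change of APP/PS1 over WT changed sign for 18 of 30 members (60.0%) when APP/PS1 replicate 3 was left out, and for 26.0% of all genes tested. It moved by more than its standard error for 11 of the 30 members. Cacna1f, for example, changed sign between 0.00 (SE 0.24) and -0.05 (SE 0.28). The median size of the log2 fold change, taken without its sign, went from 0.14 to 0.06 for the members and from 0.14 to 0.10 for all genes. APP/PS1 replicate 3 lay outside the range of the other 5 libraries for 23 members, 10 above and 13 below, where 61.6% of all genes lay outside it, 31.4% above and 30.2% below. It lay more than 1.5-fold past that range for 12 of the 30 members (40.0%), where 2310 genes (12.8%) did. The 5 members above by that margin were Scn4b, Cacna1a, Cacna1g, Cacna2d2 and Cacnb4, where 6.41% of genes lay above. Of the 7 below, 6 were Scn3a, Scn3b, Cacna1c, Cacna1h, Cacnb1 and Cacnb3, where 6.38% lay below. In WT replicate 2, 1 of the 30 members was past the range of the rest by that margin. In WT replicates 1 and 4 and APP/PS1 replicates 1 and 2, 0 were. The share of genes was 1.95%, 1.62% and 1.75% in WT replicates 1, 2 and 4 and 2.33% and 2.05% in APP/PS1 replicates 1 and 2. The 5 members above are known for strong expression in cerebellar neurons, a trait that was not compared between them and the other members. The part of the cerebellar signal in their levels was not tested.

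**Figure D2:**
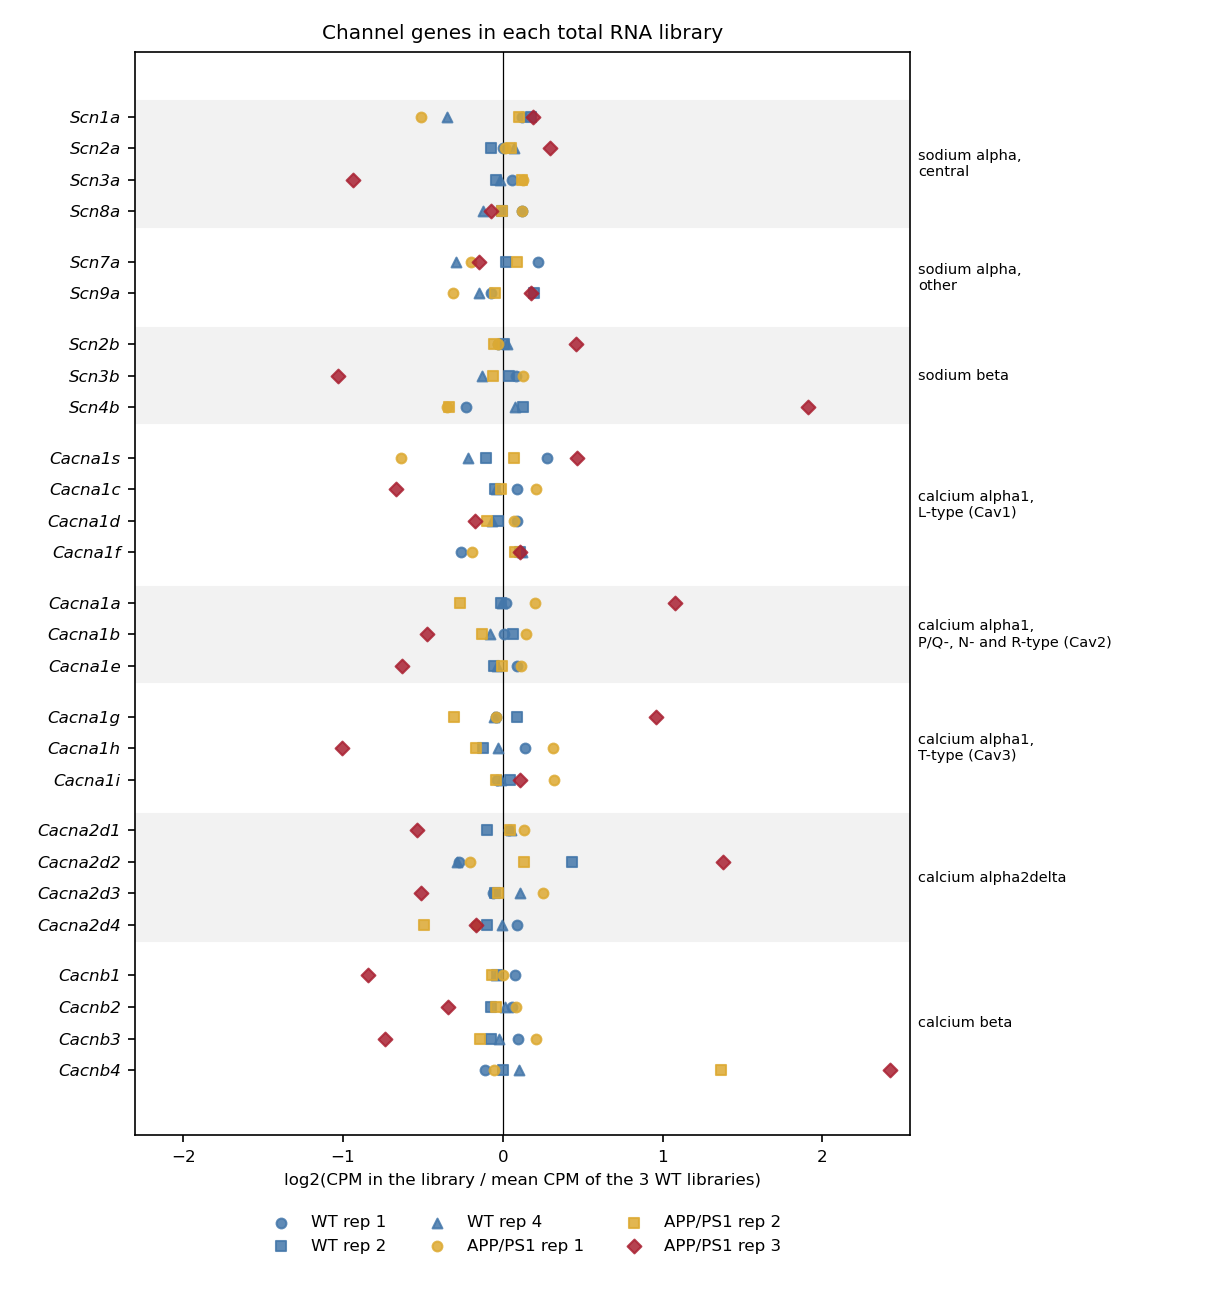
Level of 27 tested channel genes (vertical axis, by role) in each of the 6 libraries as log2 of CPM over the mean CPM of the 3 WT libraries (horizontal axis). Red diamonds, APP/PS1 replicate 3, lie apart from the other symbols in both directions, and Scn10a, at 0 in 2 libraries, is not drawn.

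Among the sodium channel alpha genes of the central nervous system, levels outside APP/PS1 replicate 3 were steady for 3 of 4. Scn8a (chromosome 15, 100869863 to 101045938, mm10) encodes Nav1.6, the main channel of the mature axon initial segment and nodes of Ranvier. It stood at 754, 690.3 and 637 CPM in WT replicates 1, 2 and 4 and at 754, 691 and 659.8 CPM in APP/PS1 replicates 1, 2 and 3. The groups overlapped almost fully, with a log2 fold change of 0.02 (SE 0.10), and 0.05 (SE 0.09) without APP/PS1 replicate 3. Scn2a (chromosome 2, 65620764 to 65767447) encodes Nav1.2, found in excitatory neurons and their unmyelinated axons, and had 713, 678 and 749 CPM in WT and 719, 738 and 875 CPM in APP/PS1. APP/PS1 replicate 3 held the highest value, and the log2 fold change was 0.12 (SE 0.10) with all libraries and 0.03 (SE 0.06) without it. In edgeR's test the adjusted p was 0.975 for Scn8a and 0.887 for Scn2a.

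Scn3a (chromosome 2, 65457118 to 65567591), encoding the Nav1.3 channel that is most abundant in developing brain, was at 99.8, 93.3 and 95.1 CPM in WT. In APP/PS1 it was at 105, 104 and 50.3 CPM, so APP/PS1 replicates 1 and 2 lay just above every WT library and replicate 3 far below. Its log2 fold change was -0.15 (SE 0.27) with all libraries and 0.12 (SE 0.06) without replicate 3, and edgeR's adjusted p was 0.912 and 0.995. Scn1a (chromosome 2, 66270781 to 66440837) encodes Nav1.1, on which fast-spiking inhibitory neurons depend. It stood at 206, 213 and 149 CPM in WT and at 133, 203 and 216 CPM in APP/PS1. WT replicate 4 and APP/PS1 replicate 1 were low and the other 4 libraries lay within 203 to 216 CPM, so the split ran across the genotypes. The log2 fold change was -0.04 (SE 0.22), and -0.18 (SE 0.22) without APP/PS1 replicate 3. Pvalb, a marker of fast-spiking neurons, stood at 28.3 CPM in WT replicate 4 and 21.9 CPM in APP/PS1 replicate 1. It stood at 19.6 to 28.1 CPM in WT replicates 1 and 2 and APP/PS1 replicate 2. In APP/PS1 replicate 3, whose cerebellar list summed to 3427 CPM, it stood at 256 CPM. The tissue behind that Pvalb level was not tested. Of the 7 interneuron markers listed, Pvalb among them, 3 lay above and 4 below the other libraries in APP/PS1 replicate 3. The part of such cells in the Scn1a values was not tested. Scn1a, Scn2a, Scn3a, Scn7a and Scn9a lie in 1 cluster on chromosome 2, and in APP/PS1 replicate 3 the first 2 were the highest of the 6 libraries while Scn3a was the lowest.

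The sodium channel alpha genes better known outside the brain were scarce. Scn7a, encoding the sodium-sensing channel Nax, ranged from 4.12 to 5.89 CPM, and Scn9a, encoding Nav1.7 of sensory and sympathetic neurons, from 8.44 to 12 CPM, in both cases with overlapping groups. Their log2 fold changes were -0.08 (SE 0.18) and -0.05 (SE 0.16), and -0.05 (SE 0.19) and -0.18 (SE 0.14) without APP/PS1 replicate 3.

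Scn10a, Scn11a and Scn4a were at the level of a few fragments. Low values in the table cluster at 4, so 1 fragment was taken to stand for about 4 estimated counts. Scn10a, encoding Nav1.8 of pain-sensing neurons, had 21, 20 and 0 estimated counts in WT and 8, 19 and 0 in APP/PS1. Scn11a, encoding Nav1.9, had 5, 12 and 0 in WT and 4, 20 and 8 in APP/PS1. Scn4a, encoding the skeletal muscle channel Nav1.4, had 8, 13 and 4 in WT and 0 in every APP/PS1 library, where 0 allows up to 3 fragments over the group. Its groups did not overlap, but it was not among the genes tested. With no filter, edgeR gave Scn4a an adjusted p of 0.853, and DESeq2 gave 0.663. No fold is given for these genes. Skeletal muscle markers were near 0, with a summed level of 3.07 to 5.05 CPM for 6 genes.

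The sodium channel beta genes spread in both directions in APP/PS1 replicate 3. Scn4b (chromosome 9, 45138624 to 45154155) encodes the beta4 subunit linked to resurgent current in cerebellar Purkinje cells. It was at 16.1, 20.6 and 19.9 CPM in WT and at 14.9, 15.0 and 71.1 CPM in APP/PS1. APP/PS1 replicates 1 and 2 lay below every WT library, and replicate 3 lay 4.11-fold above the mean of the other 5. Its log2 fold change was 0.83 (SE 0.62) with all libraries and -0.35 (SE 0.12) without replicate 3, where edgeR's unadjusted p was 0.0296 and adjusted p 0.995. Over all settings its adjusted p lay between 0.563 and 0.995. Scn2b (chromosome 9, 45117876 to 45130070), whose beta2 subunit forms a disulphide bond with the alpha subunit, is the neighbour of Scn4b, with 8553 bases between them. It was at 388, 399 and 404 CPM in WT and 389, 382 and 545 CPM in APP/PS1, the narrowest spread of any tested member among the libraries other than APP/PS1 replicate 3 (1.06-fold).

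Scn3b (chromosome 9, 40269216 to 40291618), encoding beta3, which is abundant in hippocampal pyramidal cells, went the other way in APP/PS1 replicate 3. It was at 313, 303 and 270.3 CPM in WT and 323, 283 and 145 CPM in APP/PS1, so replicate 3 held 2.06-fold less than the mean of the other 5. This gave a log2 fold change of -0.24 (SE 0.28), or 0.03 (SE 0.09) without replicate 3. Scn2b, Scn3b and Scn4b each changed sign when it was left out.

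**Figure D3:**
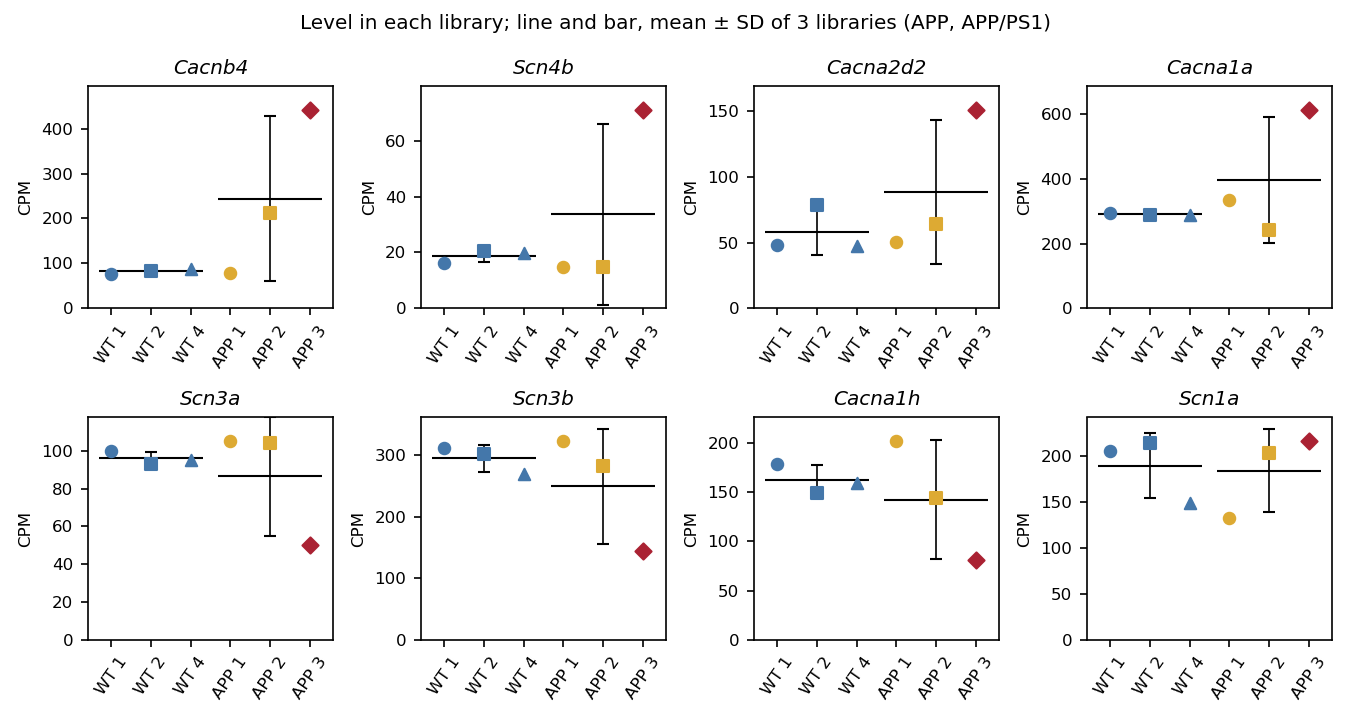
CPM of 8 channel genes in each library (points), with the mean ± SD of 3 libraries per genotype (lines and bars), on axes that start at 0. APP/PS1 replicate 3 is the highest library for Cacnb4, Scn4b, Cacna2d2 and Cacna1a and the lowest for Scn3a, Scn3b and Cacna1h, while Scn1a is lowest in WT replicate 4 and APP/PS1 replicate 1.

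Among the L-type genes, Cacna1c (chromosome 6, 118587240 to 119197384), encoding Cav1.2, the main L-type channel of brain, was at 294, 267 and 269 CPM in WT. In APP/PS1 it was at 319, 274 and 174 CPM, with replicate 3 lowest and replicate 1 highest of all 6. In the fit the log2 fold change was -0.11 (SE 0.21), and 0.10 (SE 0.08) without replicate 3. Cacna1d, encoding Cav1.3, which opens at lower voltages and serves pacemaking, was at 113, 104 and 101 CPM in WT and 111, 99.4 and 94.1 CPM in APP/PS1. Its groups overlapped, with a log2 fold change of -0.06 (SE 0.09), and -0.02 (SE 0.08) without replicate 3. Cacna1s, the skeletal muscle gene, and Cacna1f, the retinal gene, ranged from 0.37 to 0.80 and from 0.71 to 0.92 CPM. Their log2 fold changes were 0.04 (SE 0.36) and 0.00 (SE 0.24), and -0.24 (SE 0.37) and -0.05 (SE 0.28) without replicate 3. Adjusted p in edgeR's test was 0.897 or more for the 4 genes.

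The Cav2 genes, whose channels open at presynaptic terminals, moved apart from each other in APP/PS1 replicate 3. Cacna1a (chromosome 8, 84338631 to 84640251) encodes Cav2.1, the P/Q-type pore, and was at 295, 288 and 289.6 CPM in WT and at 335, 242 and 614 CPM in APP/PS1. The WT libraries were within a few CPM of each other, APP/PS1 replicate 2 lay below them and replicates 1 and 3 above. The log2 fold change was 0.45 (SE 0.32) and, without replicate 3, -0.02 (SE 0.13), with adjusted p of 0.887 and 0.995 in edgeR's test. Over all settings the adjusted p of Cacna1a lay between 0.593 and 0.995.

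Cacna1b (chromosome 2, 24603860 to 24763200), encoding the N-type pore Cav2.2, was at 215, 223 and 202 CPM in WT and at 236, 195 and 153 CPM in APP/PS1. Cacna1e (chromosome 1, 154390806 to 154884785), encoding the R-type pore Cav2.3 of pyramidal cell dendrites and terminals, was at 1091, 985 and 999.7 CPM in WT and at 1110.2, 1021 and 663 CPM in APP/PS1. For both genes replicate 3 was the lowest of the 6 libraries and replicate 1 the highest. Their log2 fold changes were -0.13 (SE 0.16) and -0.14 (SE 0.19) with all libraries, and 0.01 (SE 0.09) and 0.05 (SE 0.07) without replicate 3. The sum over the 3 Cav2 genes was 1492 to 1601 CPM in WT and 1681, 1458 and 1429.7 CPM in APP/PS1, so the sum of replicate 3 was close to that of replicate 2 although each gene lay outside the range of the other 5 libraries.

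Of the T-type genes, 1 lay above and 1 below the other libraries in APP/PS1 replicate 3. Cacna1g (chromosome 11, 94408391 to 94474400), encoding Cav3.1, which is prominent in thalamic relay and cerebellar Purkinje cells, was at 93.1, 102 and 92.6 CPM in WT and at 93.4, 77.7 and 186 CPM in APP/PS1. APP/PS1 replicate 2 was the lowest and replicate 3 the highest library. In the fit its log2 fold change was 0.31 (SE 0.31), and -0.17 (SE 0.10) without replicate 3. Cacna1h (chromosome 17, 25374285 to 25436334), encoding Cav3.2, which dentate granule cells and sensory neurons express, was at 179, 149 and 159 CPM in WT and at 201, 144 and 80.7 CPM in APP/PS1. Replicate 3 held 2.06-fold less than the mean of the others. With all libraries the log2 fold change was -0.19 (SE 0.30), and 0.09 (SE 0.15) without replicate 3. Cacna1i, encoding Cav3.3, was at 113, 119 and 115 CPM in WT and at 145, 112 and 124 CPM in APP/PS1, where replicate 1 and not replicate 3 was highest. Its log2 fold change of 0.14 (SE 0.11) barely differed without replicate 3, at 0.15 (SE 0.11). In edgeR's test the adjusted p of these 3 genes was 0.887, 0.904 and 0.887.

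Among the alpha2delta genes, Cacna2d1 (chromosome 5, 15934264 to 16374511), encoding the binding site of gabapentin that is abundant on excitatory neurons, was at 298, 270.1 and 300.3 CPM in WT and at 317, 299 and 199 CPM in APP/PS1. Cacna2d3 was at 107, 108 and 121 CPM in WT and at 133, 109.7 and 78.7 CPM in APP/PS1. In both genes APP/PS1 replicate 1 was highest and replicate 3 lowest, and the log2 fold changes of -0.09 (SE 0.18) and -0.07 (SE 0.19) became 0.09 (SE 0.07) and 0.11 (SE 0.10) without replicate 3. Cacna2d2 (chromosome 9, 107399733 to 107529346), the gene mutated in ducky mice with cerebellar ataxia, was at 48.1, 78.6 and 47.7 CPM in WT and at 50.4, 63.8 and 151 CPM in APP/PS1. It lay 2.62-fold above the mean of the other 5 in replicate 3, and it was also high in WT replicate 2. With all libraries its log2 fold change was 0.61 (SE 0.43), or -0.03 (SE 0.24) without replicate 3, with adjusted p of 0.887 and 0.995 in edgeR's test. GABAergic interneuron markers, 7 genes, summed to 822 CPM in WT replicate 2, to 894 CPM in APP/PS1 replicate 3 and to 684 to 715 CPM in the other 4 libraries. In APP/PS1 replicate 3 only 3 of the 7 lay above the other libraries and 4 lay below, and Pvalb, at 256 CPM against 19.6 to 28.3 CPM, carried the sum. Without Pvalb the list summed to 637 CPM there, the lowest of the 6 libraries, and to 656 to 794 CPM in the others, with WT replicate 2 highest. The part of these cells in the Cacna2d2 values was not tested, nor was the tissue behind the Pvalb level of APP/PS1 replicate 3.

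Cacna2d4, the alpha2delta gene known from retinal photoreceptors, was the member whose groups did not overlap. It was at 2.63, 2.31 and 2.47 CPM in WT and at 2.19, 1.75 and 2.2 CPM in APP/PS1. The gap between the lowest WT and the highest APP/PS1 library was small beside the spread within each group. The log2 fold change was -0.27 (SE 0.18), and -0.33 (SE 0.19) without replicate 3. In edgeR's test the unadjusted p was 0.176 and the adjusted p 0.887, and over all settings the adjusted p lay between 0.596 and 0.995.

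The calcium channel beta genes held the member with the largest difference. Cacnb4 (chromosome 2, 52428320 to 52676609) encodes the beta4 subunit, whose loss gives lethargic mice ataxia and seizures, and stood at 76.1, 82.3 and 88.3 CPM in WT. In APP/PS1 it stood at 79.2, 212 and 442 CPM. APP/PS1 replicate 1 lay within the WT range, and replicates 2 and 3 lay far above it. The mean was 82.2 ± 6.13 CPM (SD, n = 3) in WT and 244 ± 184 CPM (SD, n = 3) in APP/PS1. In the fit this gave a log2 fold change of 1.57 (SE 0.55), and edgeR's unadjusted p was 0.0259 and adjusted p 0.887. Leaving out APP/PS1 replicate 3 gave a value of 0.82 (SE 0.36), leaving out replicate 2 gave 1.66, and leaving out replicate 1 gave 2.0. Adjusted p in edgeR's test was 0.995, 0.749 and 0.479 in those fits, and over all settings it lay between 0.479 and 0.995.

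The cerebellar sum was 16 CPM in APP/PS1 replicate 2 and 12.7 to 23.9 CPM over the libraries other than replicate 3. The choroid plexus list was at its highest in replicate 2 (4112 CPM). The part of either tissue in the Cacnb4 level was not tested. Of the 4 other genes far above the range in replicate 3, Scn4b, Cacna1a and Cacna1g stood at 15.0, 242 and 77.7 CPM in replicate 2, below every WT library. Cacna2d2 stood at 63.8 CPM there, within the WT range. A long noncoding RNA gene, A430018G15Rik, and a pseudogene, Bloc1s2-ps, overlap Cacnb4 in RefSeq. Many other members overlap annotated genes too, such as Cacnb1 with Rpl19. Whether counting used strand is not given in the sources used here.

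The other 3 beta genes all lay lowest in APP/PS1 replicate 3. Cacnb1, which encodes the partner of the muscle channel and is also expressed in brain, was at 155, 143 and 143 CPM in WT and at 147, 140.1 and 81.8 CPM in APP/PS1. Cacnb3, encoding a beta subunit often found with N-type channels, was at 149, 132 and 137 CPM in WT and at 161, 126 and 83.7 CPM in APP/PS1. Cacnb2, encoding the main beta subunit of heart, was at 94.9, 86.5 and 91.9 CPM in WT and at 96.5, 88.3 and 71.7 CPM in APP/PS1. Outside replicate 3 each of them stayed within 1.10-fold to 1.27-fold across 5 libraries. Their log2 fold changes were -0.26 (SE 0.21), -0.17 (SE 0.22) and -0.09 (SE 0.12), and -0.04 (SE 0.06), 0.04 (SE 0.11) and 0.02 (SE 0.07) without replicate 3. Summed over the 4 beta genes the level was 444 to 474 CPM in WT and 483, 566 and 679 CPM in APP/PS1, an order that Cacnb4 set.

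**Figure D4:**
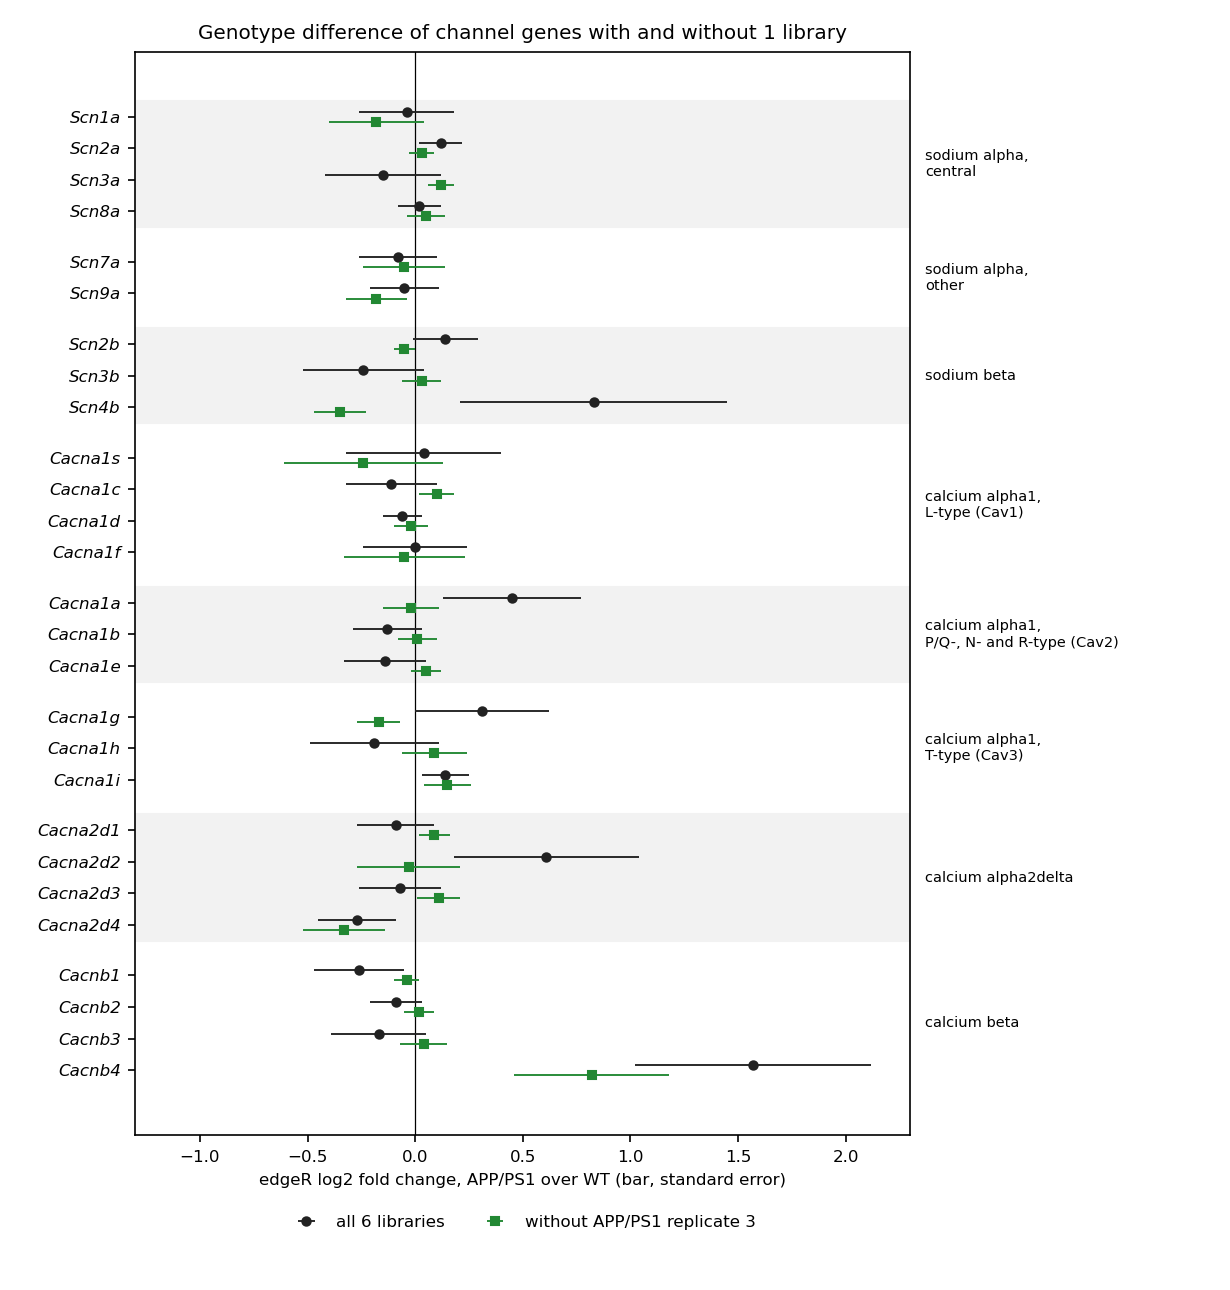
edgeR log2 fold change of APP/PS1 over WT with its standard error (horizontal axis) for 27 channel genes by role, with all 6 libraries (black circles) and without APP/PS1 replicate 3 (green squares). With all libraries Cacnb4 (1.57), Scn4b (0.83) and Cacna2d2 (0.61) lie farthest to the right, and without replicate 3 Scn4b lies at -0.35 and Cacna2d2 at -0.03.

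For 7 of the 8 roles, the median log2 fold change was -0.01 for the central sodium alpha genes, 0.14 for the sodium beta genes, -0.03 for Cav1, -0.13 for Cav2, 0.14 for Cav3, -0.08 for alpha2delta and -0.13 for calcium beta, beside 0.01 for all genes tested. Without APP/PS1 replicate 3 these medians were 0.04, -0.05, -0.04, 0.01, 0.09, 0.03 and 0.03, beside 0.00 for all genes. Over all 30 members 12 log2 fold changes were positive and 18 negative, and over the 31 tested without replicate 3 there were 15 and 16. In replicate 3 the median distance from the mean of the other 5 libraries, without its sign, was 0.57 log2 units for members and 0.28 for all genes.

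Upstream sequence is shown for 4 members that lay outside the range of the other libraries in APP/PS1 replicate 3: the neighbours Scn2b and Scn4b and Cacna2d2, which lay above, and Cacna1b, which lay below. RefSeq promoter windows of build GRCm38.p6 (the same assembly as mm10) were found for 24 of the 32 members. Each sequence runs 5′ to 3′ on the strand of its gene and ends just before the first annotated base of the gene. Capitals mark the GC box GGGCGG or its reverse complement CCGCCC.
Scn2b, chr9:45117626-45117875, plus strand: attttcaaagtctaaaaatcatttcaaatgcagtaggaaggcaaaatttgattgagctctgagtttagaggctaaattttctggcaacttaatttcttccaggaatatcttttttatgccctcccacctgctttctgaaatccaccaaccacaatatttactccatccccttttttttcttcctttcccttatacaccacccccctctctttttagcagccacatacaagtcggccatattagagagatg
Scn4b, chr9:45138374-45138623, plus strand: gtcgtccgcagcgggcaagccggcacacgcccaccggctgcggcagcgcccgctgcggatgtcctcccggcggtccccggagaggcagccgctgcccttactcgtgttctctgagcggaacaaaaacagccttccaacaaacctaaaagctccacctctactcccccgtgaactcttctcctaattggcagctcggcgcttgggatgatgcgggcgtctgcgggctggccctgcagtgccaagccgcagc
Cacna2d2, chr9:107399630-107399732, plus strand: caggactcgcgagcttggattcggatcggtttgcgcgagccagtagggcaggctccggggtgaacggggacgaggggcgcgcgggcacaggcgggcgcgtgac
Cacna1b, chr2:24763201-24763402, minus strand: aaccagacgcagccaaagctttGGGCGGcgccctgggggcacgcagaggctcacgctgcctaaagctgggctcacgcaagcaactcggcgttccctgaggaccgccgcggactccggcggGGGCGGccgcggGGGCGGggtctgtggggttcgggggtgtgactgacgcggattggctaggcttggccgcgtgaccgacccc

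The upstream stretches of the neighbours differed in composition: that of Scn2b was 38.4% G and C with 1 CpG, and that of Scn4b 66.0% with 23. Cacna2d2 and Cacna1b both had 71.8% G and C. The GC box occurred 3 times upstream of Cacna1b and not in the other 3 stretches. The stretches differ in length, with 250 bases for Scn2b and Scn4b, 202 for Cacna1b and 103 for Cacna2d2. Whole windows hold 250 bases before and 50 after a start. Over these the GC box was found on either strand in 14 of 34 windows of members (41.2%) and in 35.7% of all 32851 windows. Cacna2d2 was among the members with a GC box in a window. The TATA box TATAAA (reverse complement TTTATA) was in 2 member windows (5.88%), those of Cacna1d and Scn2a, and in 13.6% of all windows. The cyclic AMP response element TGACGTCA, which reads the same on both strands, was in 0 of the 34 and in 1.79% of all windows. None of the 3 motifs contains another, and a match describes the sequence only.

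Genes whose products bind, anchor or regulate these channels were counted from a list of partners. Of 41 found in the table and tested, 0 were called by edgeR with all libraries, where 0.00554% of all genes were, and 3 had an unadjusted p under 0.05 (Fgf12, Gem and Stac2), where 3.42% of all genes had one. The median log2 fold change was 0.02, with 23 positive and 18 negative. DESeq2 and limma-voom also called 0, where they called 0.117% and 0.00554% of all genes. Each gave 3 partners an unadjusted p under 0.05, where 4.4% and 3.43% of all genes had one. Without APP/PS1 replicate 3, 1 of 41 was called, where 0.0273% of all genes were. That gene was Fgf12, one of the fibroblast growth factor homologous factors that bind the tail of sodium channel alpha subunits and set inactivation. It was at 68.7, 64.6 and 68.2 CPM in WT and 148, 176 and 70.2 CPM in APP/PS1, so replicates 1 and 2 were high and replicate 3 lay just above WT. Its log2 fold change was 0.97 (SE 0.31) with all libraries and 1.26 without replicate 3, where edgeR's adjusted p was 0.0169, and over all settings that adjusted p ran to 0.991.

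Gem, an inhibitor of calcium channels that binds their beta subunits, was at 3.43, 4.04 and 3.54 CPM in WT and 2.73, 2.21 and 1.85 CPM in APP/PS1. Stac2, an adaptor that slows inactivation of L-type channels, was at 86.2, 92.9 and 94.4 CPM in WT and 79.4, 65.2 and 53.7 CPM in APP/PS1. For both genes every APP/PS1 library lay below every WT library. Their log2 fold changes were -0.70 (SE 0.20) and -0.46 (SE 0.14) with adjusted p of 0.887 each in edgeR's test, and -0.58 and -0.34 without replicate 3. Of the 41 partners, these 2 lay wholly below WT, where 4.76% of all genes did. Another 2, Fgf12 and Ank3, lay wholly above WT, where 5.63% of all genes did.

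APP/PS1 replicate 3 lay outside the range of the other 5 libraries for 27 of the 41 partners (65.9%), where 61.6% of all genes did. It lay past that range by 1.5-fold for 10 partners (24.4%), 4 above and 6 below, where 12.8% of all genes and 40.0% of the channel members did. All 10 are named here after their values were seen. Fgf14, another homologous factor, was at 42.7 to 46.5 CPM in 5 libraries and 84.6 CPM in that one. Cacng2, encoding stargazin, which is mutated in an ataxic mouse and traffics AMPA receptors, was at 36.7 to 37.7 CPM in 5 libraries and 68.5 CPM in that one. Erc1 and Rims2, active zone proteins that tether Cav2 channels, were at 71.2 to 93.6 and 166 to 187 CPM against 280.3 and 462 CPM. Cacng3, a relative of stargazin found in forebrain, was at 48.9 to 55.7 CPM against 27.3 CPM. Log2 fold changes without replicate 3 lay between -0.09 and 0.04 for these 5 genes. The other 5 below were Fgf13, the gamma family genes Cacng5 and Cacng8, and the active zone genes Rimbp2 and Erc2. They stood at 43.8, 7.60, 53.4, 112 and 176 CPM in replicate 3, against at least 76.7, 15.0, 93.0, 228 and 296 CPM in each of the other libraries.

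The named partners of the remaining roles stayed close to WT. Ank3 and Cntn1, which encode ankyrin-G, the anchor of sodium channels at the axon initial segment, and a cell adhesion partner, both had a log2 fold change of 0.08 (SE 0.07). Calm3, a calmodulin gene, had -0.12 (SE 0.11). Unc79 and Fam155a, of the sodium leak channel complex, had -0.10 (SE 0.09) and -0.14 (SE 0.11). In edgeR's test the adjusted p of these 5 was 0.887.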

How the data were processed

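Total RNA from the hippocampus of 6 male mice aged 4 months had been sequenced. The table of estimated counts per gene symbol was used as deposited, in whole numbers. Build mm10 and the tools HISAT2, StringTie and DESeq are listed in the submitters' processing notes, which tie none of them to a step. No source used here gives the counting step, annotation, strand setting or filters, and the conversion from fragments to estimated counts, about 4 per fragment from the low values, is uncertain. Small RNA counts were not used.

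The genotypes were compared in R 4.3.3 with edgeR 4.0.16 (TMM scaling, quasi-likelihood F test), using the default expression filter (18060 genes kept) and Benjamini-Hochberg adjustment over all genes tested, with a threshold of 0.05. CPM is on TMM-adjusted library sizes, and the SE derives from the fold change and the F statistic. The biological coefficient of variation was 26.5%, and 19.7% without APP/PS1 replicate 3. Spread between libraries and not counting error limits precision for all but the scarcest genes. Other settings used DESeq2 1.42.0, limma 3.58.1 (voom, with and without quality weights), other scalings, filters and division by 4, the replicate number as a block, and each library left out. All 32 members matched a RefSeq gene table of GRCm38.p6, which gave coordinates. No transcript or coding lengths were used, so levels of different genes are not ranked and shares per length were not computed.

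Members and lists were chosen with earlier results of these data known. The rule for named genes took, per role, members with at least 1 CPM on average and the smallest p or largest change, those past the threshold and those whose groups do not overlap, and 2 partners per role by smallest p. Other members, the 1.5-fold margin and the genes with printed sequence were chosen after their values were seen. Some members and partners are counted but not reported here by name.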

Additional observations from a re-analysis of the deposited data

How the results depend on the processing

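The count of members past edgeR's threshold was 0 in every one of the 16 other settings, with a lowest adjusted p of 0.479 among the fits. Over all genes the count was 1, and it was 24 with DESeq2, 5 with quality weights and 2 with the replicate block. With 1 library left out it ran from 0 to 6, and leaving out APP/PS1 replicate 1 gave 6, APP/PS1 replicate 3 gave 5 and WT replicate 4 gave 4. Leaving out WT replicate 1 or 2 gave 0 in edgeR's test, where the unadjusted p of 371 and 345 genes was under 0.05. For the partners it ran from 0 to 1 with 1 library left out. The median of the central sodium alpha genes was -0.05 with upper quartile scaling, 0.04 with quality weights and 0.03 with the replicate block, and from -0.10 to 0.06 with 1 library left out. The log2 ratio of their mean summed CPM lay between 0.02 and 0.09 in those last fits, and that of the other sodium alpha genes between -0.37 and 0.06. The Cav1 median was -0.10 with a filter of 1 CPM in 3 libraries and -0.08 to -0.02 with 1 library left out. Fold changes changed sign for 18 of 30 members without APP/PS1 replicate 3, 15 with the replicate block, 12 with quality weights, which gave that library a weight of 0.21, and 0 to 4 in the other settings. The cause was not tested.

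Replicate numbers 1 and 2 occur in both genotypes. Same-numbered libraries correlated at 0.094 and -0.043 in their deviations from the group means, and differently numbered ones at -0.082 to 0.068. With 3 libraries per group these values cannot show or exclude pairing. The numbers were not taken as pairs in the main fit. With the replicate block WT replicate 4 and APP/PS1 replicate 3 carry no information on genotype, and Cacnb4 had a log2 fold change of 0.71. Levels per length within each role were not run. Depth limits Scn4a, Scn10a and Scn11a, which hold a few fragments each.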
